A study of Mus musculus with 6 samples.

Results

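The glutathione peroxidases, glutathione S-transferases, peroxiredoxins and thioredoxin-related genes were followed in whole testes of Gipr-/- mice and Gipr+/+ mice. Members were all probes whose gene name in the array files starts with Gpx, Prdx or Txn, or with Gst followed by a, k, m, o, p, t or z and a digit. This gave 56 genes of 34844 distinct gene names, read by 86 probes. The members are 8 glutathione peroxidases, 21 glutathione S-transferases, 7 peroxiredoxins and 20 genes with thioredoxin-type names. Names were checked against RefSeq, in which Txndc3 is now Nme8, Txndc6 is Nme9 and Prdx6-ps1 is Prdx6b.

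Each of the 6 arrays holds Cy3-labelled cRNA from 1 mouse, 3 per genotype, all C57BL/6 and 8 weeks old. Gipr encodes the receptor for the gut hormone GIP, which raises insulin release after a meal, and the series asks how testis expression differs without it. The labels give the knockout as a whole-animal genotype, do not say how the allele was made, and do not say whether the wild-type mice were littermates. Values are log2 signals relative to the 75th percentile of their own array, and suit comparing 1 probe between arrays rather than different probes. The sums given below for cell type lists add different probes, so the brightest probes weigh most in them.

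Hydroperoxides arise wherever cells respire or make steroids, and sperm are rich in lipids that peroxides attack. Glutathione peroxidases reduce peroxides with glutathione, peroxiredoxins do so with thioredoxin, and glutathione S-transferases join glutathione to lipid breakdown products and foreign compounds. Thioredoxin reductases and glutathione reductase return the spent carriers to their reduced form with NADPH. In testis, Gpx4 has a second role as a structural protein of the sperm midpiece, and several thioredoxins are made only or mainly in germ cells.

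Signals of the Gipr probe were 155, 145 and 176 for the knockout mice, against 782, 820 and 1043 for the wild-type mice. The difference was -2.48 ± 0.12 (log2, SE), a 5.58-fold lower signal, with a limma adjusted p of 0.00311. The arrays therefore go with their labels. The sources used here do not say whether this probe lies in the deleted part of the gene. All 6 arrays lie on 1 slide, with the knockout arrays in row 1 and the wild-type arrays in row 2, and row cannot be told apart from genotype. Spots well above background made up 70.6% to 76.0% of each array's non-control spots, and 0 were saturated.

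No member passed the test. Of the 86 probes, 80 probes of 55 genes were bright enough to be tested, all of them well above background on all 6 arrays, and 0 reached a limma adjusted p under 0.05. The lowest adjusted p among them was 0.628. Across the whole table, 18 of 38884 probes passed (0.0463%), 16 lower and 2 higher in the knockout. At an unadjusted limma p under 0.05, 12 member probes of 10 genes stood out (15.0% of those tested), against 2979 of all tested probes (7.66%). Of these 12, 11 read lower in the knockout, where 3.25% of all tested probes did, and 1 read higher, where 4.41% did. The 10 genes are Gpx3, Gstk1, Gstm1, Gstm2, Gstm3, Gstm4, Prdx4, Txndc8, Txnip and Txndc9.

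That count rested on single mice. It was 0 without knockout replicate 1, 1 without knockout replicate 3 and 20 without knockout replicate 2. The count over all tested probes moved as well, from 2979 of 38884 to 2017 of 38953, 2361 of 39690 and 5432 of 39342. Without wild-type replicates 1, 2 and 3 the member count was 5, 7 and 4. The count over all tested probes was then 2392 of 39415, 2033 of 39019 and 3919 of 39083. An exact permutation test of a single probe, with 3 arrays against 3, cannot go below 0.1, and 10 of the 12 probes stood at that value.

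Most members differed little. The fitted difference was below 0 for 57 of the 80 tested probes (71.2%, against 47.2% of all tested probes) and above 0 for 23. The median over the members was -0.05, and over all tested probes 0.01. A total of 48 probes lay within 0.1 of 0, and the largest difference, that of Gstm1, was 0.64 in size. Knockout and wild-type values did not overlap for 14 probes lower in the knockout (17.5%, against 5.49% of all tested probes) and for 2 higher, where 7.87% of all did. Without the 8 tested probes of Gstm1 to Gstm4, 7 of 72 probes had an unadjusted p under 0.05 and the median was -0.04.

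**Figure D1:**
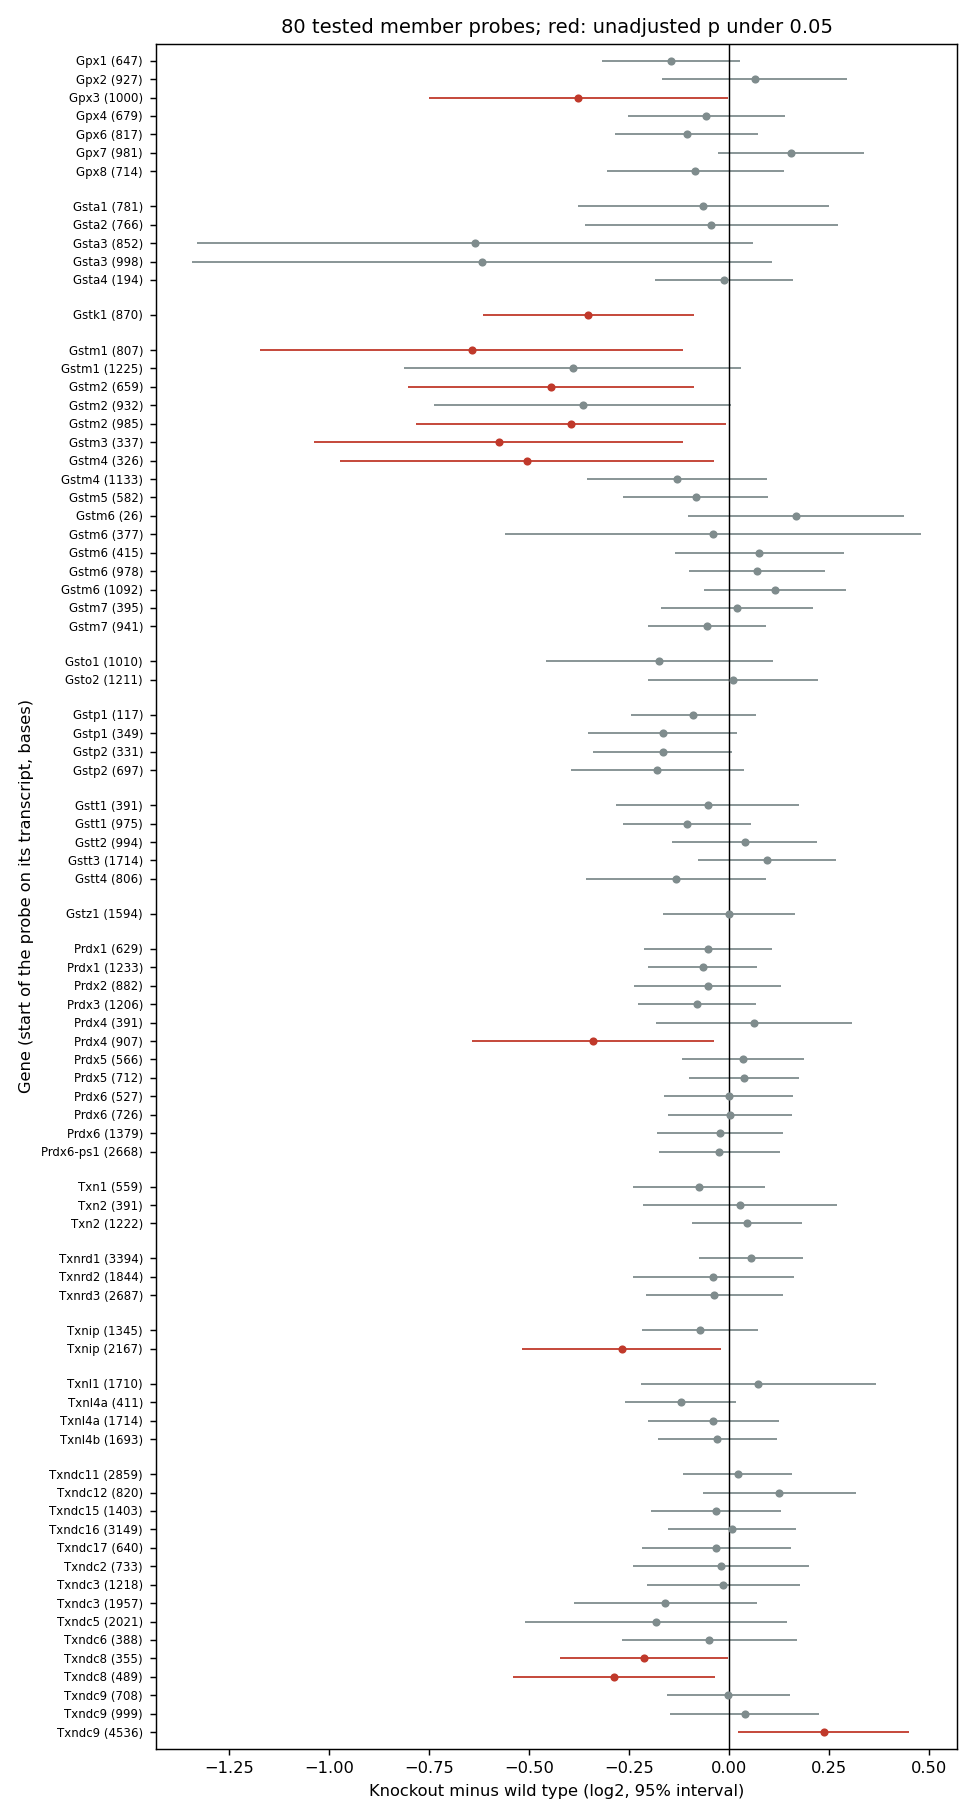
Knockout minus wild-type difference (log2, x axis) with its 95% interval for each of the 80 tested member probes, grouped by class and labelled by gene and by the base of the transcript at which the probe starts. The 12 red probes have an unadjusted p under 0.05, and 11 of them lie left of 0.

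The mu class of glutathione S-transferases carried 5 of the 12 probes, so its sequences are shown first. Its 7 genes lie in a row on chromosome 3 (mm9), in the order Gstm5, Gstm7, Gstm6, Gstm3, Gstm2, Gstm1 and Gstm4, and are similar enough that a probe for one could also bind transcripts of another. The Gstm3 probe, at chr3:107769290-107770549 on the minus strand, is given below with the Gstm6 probe (chr3:107745052-107745111) and the Gstm7 probe (chr3:107732073-107733247) that cover the same part of their transcripts. Capitals mark letters that differ from the aligned Gstm3 probe.
Gstm3: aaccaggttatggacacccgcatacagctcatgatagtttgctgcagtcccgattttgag
Gstm6: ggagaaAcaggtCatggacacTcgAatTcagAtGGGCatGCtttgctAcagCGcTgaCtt
Gstm7: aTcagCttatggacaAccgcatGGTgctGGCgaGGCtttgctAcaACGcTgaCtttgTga
Over the 56 bases that the Gstm3 and Gstm6 probes share, 39 match, and over the 59 bases shared with Gstm7, 40 match.

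This Gstm3 probe read 2.59, 3.12 and 2.46 in the knockout, against 3.25, 3.14 and 3.51 in the wild type. Knockout replicate 2 lay just under the lowest wild-type array, and the other 2 knockout arrays lay well under it. The difference was -0.58 ± 0.19 (log2, SE), with a limma p of 0.0221 and an adjusted p of 0.636. The aligned Gstm6 and Gstm7 probes gave 0.08 ± 0.09 and 0.02 ± 0.08, with overlapping groups. A further Gstm3 probe, at base 1141 of the transcript, was too dim to test.

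Gstm1, Gstm2 and Gstm4 had the same shape over the arrays. The Gstm1 probe at base 807 read 3.37, 3.92 and 3.16 in the knockout and 3.98, 3.99 and 4.41 in the wild type, a 1.56-fold lower signal (-0.64 ± 0.22, limma p 0.0244, adjusted p 0.639). Again knockout replicate 2 stood beside wild-type replicates 1 and 2, and wild-type replicate 3 was the highest. For Gstm2, the probe at base 659 read 1.86, 2.28 and 1.85 against 2.38, 2.30 and 2.63, a difference of -0.44 ± 0.15 without overlap. Its probe at base 985 read 5.26, 5.70 and 5.25 against 5.70, 5.66 and 6.02 (-0.39 ± 0.16), and here the groups overlapped. They overlapped as well for the Gstm4 probe at base 326, which read 0.93, 1.47 and 0.79 against 1.49, 1.43 and 1.78 (-0.51 ± 0.19). Over the 6 arrays, the 10 pairs that these 5 probes form had Pearson correlations between 0.984 and 0.997, a description over arrays of 2 genotypes. All 5 were picked for a low p and read lower in the knockout, which by itself makes them alike. How alike the sequences of these 5 probes are is not given here.

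The remaining probes of these genes did not all follow. For Gstm2, the probe at base 932 gave -0.37 ± 0.15 (limma p 0.0528). For Gstm1, the probe at base 1225 gave -0.39 ± 0.17 (limma p 0.0642), although the files place that probe on chromosome 5 and not in the cluster. For Gstm4, the probe at base 1133 gave only -0.13 ± 0.09, with overlapping groups. The 5 tested Gstm6 probes lay between -0.04 and 0.17, and the 2 tested Gstm7 probes between -0.05 and 0.02. Gstm5, the mu form known from testis and sperm, read 7.66, 7.81 and 7.60 against 7.73, 7.80 and 7.80, a difference of -0.08 ± 0.07 with overlapping groups. Of the 16 tested mu probes, 11 lay below 0 and 5 above.

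**Figure D2:**
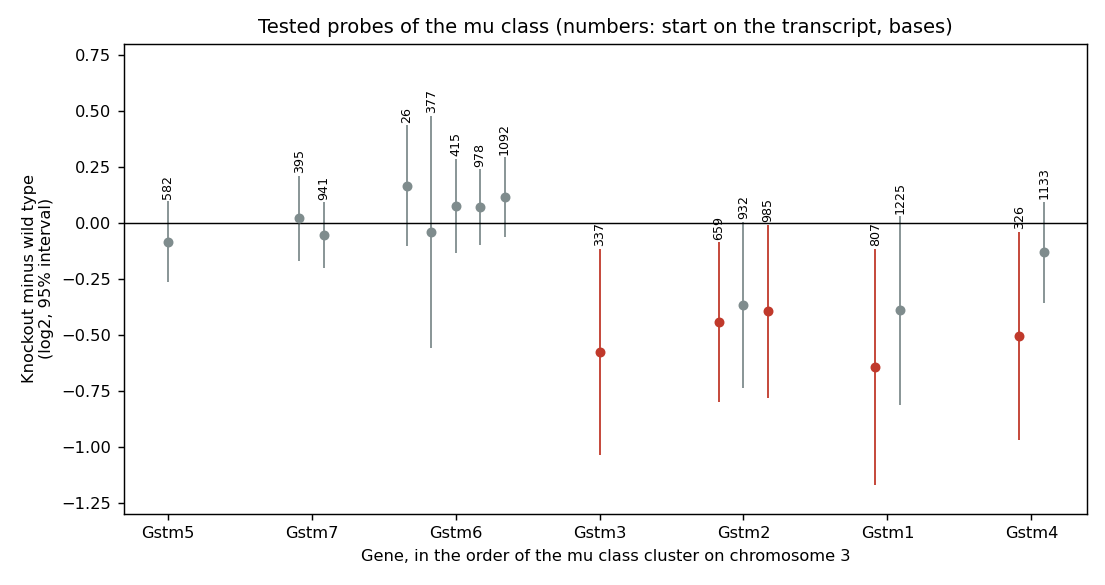
Knockout minus wild-type difference (log2, y axis, with 95% intervals) of the 16 tested mu class probes, with genes on the x axis in their order along chromosome 3 and each probe labelled by its starting base on the transcript. The 5 red probes, of Gstm1 to Gstm4, have an unadjusted p under 0.05, while the probes of Gstm5, Gstm6 and Gstm7 lie between -0.08 and 0.17.

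Among the other transferases, Gstk1, the kappa form found in mitochondria and peroxisomes, had the lowest p of all members. Its probe (chr6:42200381-42200440, mm9) read 0.54, 0.71 and 0.46 in the knockout and 0.81, 0.85 and 1.11 in the wild type. The groups did not overlap, and the difference was -0.35 ± 0.11, a 1.28-fold lower signal (limma p 0.0172, adjusted p 0.628). Its values had a correlation of 0.972 with those of the Gstm1 probe over the 6 arrays. Both probes were picked for a low p and read lower in the knockout, which by itself makes them alike. Other probes picked in this way were alike too, with 0.957 for Gstm1 and Txnip and 0.896 for Gstm1 and Prdx4.

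Gsta3, an alpha class transferase, had a difference nearly as large as that of Gstm1, with a wide spread between mice. Its probe at base 852 read 1.88, 2.06 and 1.06 against 1.95, 2.53 and 2.43 (-0.63 ± 0.29, limma p 0.0672), and its probe at base 998 gave -0.62 ± 0.30. Knockout replicate 3 was low by itself, while the other 2 knockout arrays lay beside or above wild-type replicate 1. Without knockout replicate 3, the difference of the first probe was -0.33. Gsta1, Gsta2 and Gsta4 gave -0.06 ± 0.13, -0.04 ± 0.13 and -0.01 ± 0.07, all with overlapping groups.

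All 4 pi class probes lay below 0, between -0.18 and -0.09, and none had an unadjusted p under 0.05. Gstp1 and Gstp2 are near-identical neighbours on chromosome 19, and their probes from the same stretch show how few letters tell them apart (capitals mark the letters in which Gstp2 differs).
Gstp1: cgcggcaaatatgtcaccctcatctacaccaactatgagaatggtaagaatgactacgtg
Gstp2: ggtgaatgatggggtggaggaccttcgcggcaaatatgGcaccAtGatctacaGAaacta
They match in 30 of the 35 bases they share, so their signals may not be fully separate. The Gstp1 probe read 0.87, 0.89 and 0.71 against 0.95, 1.06 and 0.95 (-0.17 ± 0.08, limma p 0.0715), without overlap. The Gstp2 probe read 0.79, 0.89 and 0.76 against 1.02, 1.03 and 0.89 (-0.17 ± 0.07, limma p 0.0588), with knockout replicate 2 just above wild-type replicate 3.

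In the omega, theta and zeta classes no probe had an unadjusted p under 0.05. Gsto1 gave -0.17 ± 0.12 and Gsto2, which can reduce oxidised vitamin C, 0.01 ± 0.09. Of the theta class, the Gstt1 probe at base 975 gave -0.11 ± 0.07, with groups that did not overlap, and Gstt4 -0.13 ± 0.09, with groups that did. Gstt2 and Gstt3 gave 0.04 ± 0.07 and 0.09 ± 0.07, also with overlapping groups. Gstz1, an enzyme of tyrosine breakdown, gave 0.00 ± 0.07.

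Among the glutathione peroxidases, only Gpx3, the secreted form, had an unadjusted p under 0.05. Its probe (chr11:54723436-54723495, mm9) read -1.14, -1.25 and -1.44 in the knockout and -1.004, -0.58 and -1.11 in the wild type. The groups were separated by a narrow margin, and wild-type replicate 2 was the highest array. The difference was -0.38 ± 0.15 (limma p 0.0485, adjusted p 0.649), and without wild-type replicate 2 it was -0.22. Fat cell genes were also high on wild-type replicate 2 and on knockout replicate 1, the highest Gpx3 array of each group. Fabp4, a fatty acid carrier of fat cells, read 1.82, -4.66 and -5.23 in the knockout against -3.62, 1.12 and -4.53. The 4 tested genes of the 7 listed for adipose tissue summed to 9.75, 4.755 and 4.002 against 5.09, 8.58 and 4.36, in multiples of the 75th percentile. Knockout replicate 1, with the highest of these sums, read lower for Gpx3 than wild-type replicates 1 and 3. The part of fat cell genes in the Gpx3 difference was not tested. The Gpx1 probe, for the cytosolic enzyme, read 2.63, 2.65 and 2.47 against 2.69, 2.72 and 2.77, a small difference without overlap (-0.14 ± 0.07, limma p 0.0864).

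Gpx4, the phospholipid peroxidase on which sperm structure depends, did not differ beyond the spread. It read 7.84, 8.00 and 7.74 in the knockout against 7.94, 7.90 and 7.91 in the wild type. The highest and the lowest array were both knockouts. The difference was -0.06 ± 0.08 (limma p 0.513), with a 95% interval from -0.25 to 0.14. Gpx7, a form of the endoplasmic reticulum, gave 0.16 ± 0.08 with overlapping groups. Gpx2, Gpx6 and Gpx8 gave 0.06 ± 0.10, -0.11 ± 0.07 and -0.08 ± 0.09. Gpx5, known from the epididymis, was not well above background on any array. Among the 10 genes listed for the epididymis, Adam28, Crisp1, Lcn5, Lcn8 and Rnase9 were not either. Rnase10 and Lcn10 were well above it on 6 arrays, Adam7 on 5, a probe of Spag11b on 3 and Lcn9 on 1.

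Prdx4, the peroxiredoxin of the endoplasmic reticulum, stood apart from the rest of its family. Its brighter probe, at base 907 (chrX:151758471-151758530, mm9), read 3.56, 4.01 and 3.62 in the knockout and 4.08, 4.09 and 4.05 in the wild type. The wild-type arrays lay close together, knockout replicate 2 just under them, and knockout replicates 1 and 3 further below. The difference was -0.34 ± 0.13, a 1.27-fold lower signal (limma p 0.0330, adjusted p 0.639). Without knockout replicate 2 it was -0.48, with an adjusted p of 0.222, and without knockout replicate 1 it was -0.26. A dim probe at base 391 gave 0.06 ± 0.10, so the probes of this gene disagree.

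No other peroxiredoxin had a probe with an unadjusted p under 0.05. The probes of Prdx1, Prdx2, Prdx3, Prdx5, Prdx6 and Prdx6-ps1 lay between -0.08 and 0.04, each with a standard error under 0.08. Of these, Prdx3, the mitochondrial form, had the lowest p. It read 0.89, 0.90 and 0.83 against 0.90, 0.96 and 1.01, a difference of -0.08 ± 0.06 with overlapping groups.

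**Figure D3:**
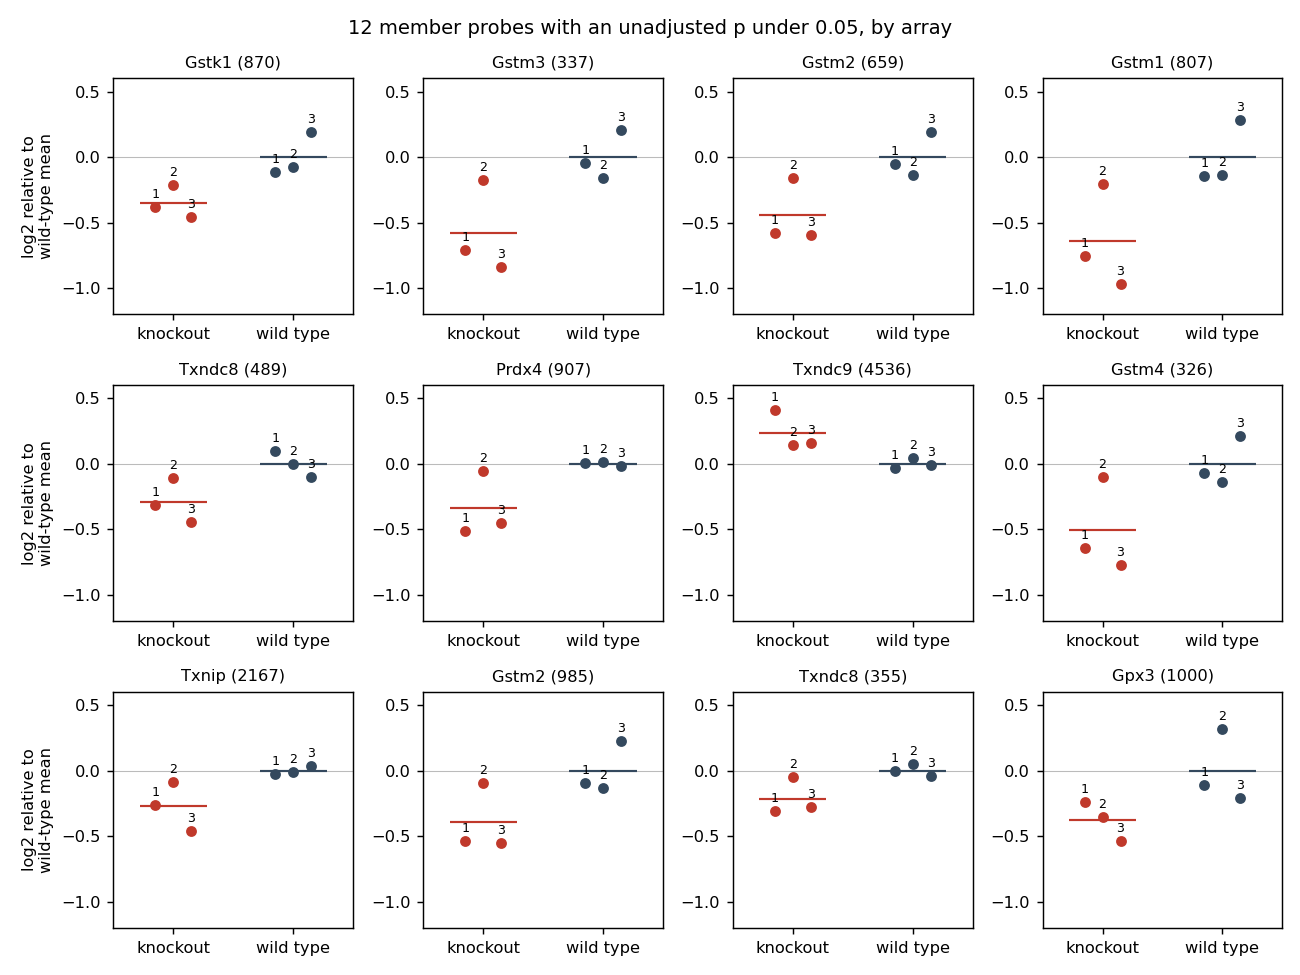
Value on each array (log2 relative to the mean of the 3 wild-type arrays, y axis) of the 12 member probes with an unadjusted p under 0.05, by genotype, with replicate numbers beside the points and group means as lines. In the 10 probes of Gstk1, Gstm1 to Gstm4, Prdx4, Txndc8 and Txnip, knockout replicate 2 is the knockout array nearest to the wild-type mean.

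Of the germ cell thioredoxins, only Txndc8, a spermatid protein linked with the forming acrosome, had an unadjusted p under 0.05, and it had it with both probes. The probe at base 489 (chr4:57996970-57997029, mm9) read 4.19, 4.40 and 4.06 against 4.60, 4.51 and 4.41 (-0.29 ± 0.10, limma p 0.0314, adjusted p 0.639). The probe at base 355 read 4.25, 4.51 and 4.28 against 4.56, 4.61 and 4.52 (-0.21 ± 0.09, limma p 0.0473). Neither probe's groups overlapped, with knockout replicate 2 just under the lowest wild-type array in both.

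Of the other sperm forms, Txndc2 and Txnrd3 lay near 0. Txndc2, a thioredoxin of the sperm tail, read 5.37, 5.57 and 5.26 against 5.42, 5.42 and 5.43, a difference of -0.02 ± 0.09 that turned to 0.02 under quantile normalization. Txndc3, another sperm tail protein, gave -0.01 ± 0.08 with its dimmer probe. Its brighter probe, at base 1957, gave -0.16 ± 0.09 (limma p 0.140) with overlapping groups. Txnrd3, a reductase that can also serve glutathione, read 5.95, 6.13 and 6.04 against 6.03, 6.09 and 6.11 (-0.04 ± 0.07), a value that was 0.00 under quantile normalization. In the 7 genes known as testis or sperm forms (Gpx4, Prdx4, Gstm5, Txndc2, Txndc3, Txndc8 and Txnrd3), 9 of 10 tested probes lay below 0, with a median of -0.07. For the other members these values were 48 of 70 and -0.05.

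The general thioredoxin system was close to level. Txn1, cytosolic thioredoxin, gave -0.08 ± 0.07, and the 2 tested probes of Txn2, its mitochondrial counterpart, gave 0.03 ± 0.10 and 0.04 ± 0.06. The cytosolic reductase Txnrd1 read 2.10, 2.08 and 2.06 in the knockout against 2.02, 2.03 and 2.03 in the wild type. The groups did not overlap, but the difference was only 0.06 ± 0.05 (limma p 0.343). Txnrd2, the mitochondrial reductase, gave -0.04 ± 0.08.

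Txnip, which binds and restrains thioredoxin and is known to be induced by glucose, read 1.51, 1.68 and 1.31 against 1.74, 1.76 and 1.81 with its probe at base 2167. All knockout arrays lay under all wild-type arrays, and the difference was -0.27 ± 0.10 (limma p 0.0380, adjusted p 0.639). Without knockout replicate 3 it was -0.17. Its probe at base 1345 gave a smaller difference of -0.07 ± 0.06 with overlapping groups.

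The only member probe that read higher in the knockout at an unadjusted p under 0.05 was 1 of 3 for Txndc9, a thioredoxin-like partner of a protein-folding chaperonin. This dim probe, at base 4536, read -3.58, -3.85 and -3.83 against -4.02, -3.95 and -4.00 (0.24 ± 0.09, limma p 0.0352, adjusted p 0.639). With normexp background correction the difference was 0.04, and without knockout replicate 1 it was 0.15. The brighter Txndc9 probes gave 0.00 ± 0.06 and 0.04 ± 0.08. Among the thioredoxin-like genes, Txnl4a, named for its likeness to thioredoxin and part of the splicing machinery, gave -0.12 ± 0.06 without overlap with its probe at base 411 and -0.04 ± 0.07 with the other. Txnl1 gave 0.07 ± 0.12. The remaining tested Txndc genes lay between -0.18 (Txndc5) and 0.13 (Txndc12), with overlapping groups.

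Most of the genes listed for Leydig cells read lower in the knockout, with shapes over the arrays that differed. Leydig cells make testosterone, and 9 of the 10 genes listed for them were measured, all well above background on all arrays. With each gene taken by its brightest probe, 8 of the 9 lay below 0, and the median difference over their 11 probes was -0.54. Hsd17b3, the last step to testosterone, gave -0.74 ± 0.26 and Cyp11a1, the first, -0.22 ± 0.15, while Hsd3b1 gave 0.16 ± 0.24. Ptgds gave -1.57 ± 0.61, and the 2 probes of Vcam1 -0.42 ± 0.11 and -0.75 ± 0.27. These probes of Ptgds and Vcam1 and that of Hsd17b3 were the 4 of 11 with an unadjusted limma p under 0.05. All 4 read lower, where 3.25% of all tested probes did, and none of the 11 passed the adjusted test. The summed level of the 9 genes, in multiples of each array's 75th percentile, was 60.6, 109.0 and 53.8 in the knockout and 124.8, 100.2 and 138.2 in the wild type. Knockout replicate 2 thus lay within the wild-type range. Ptgds made up much of that sum, and without it the sums were 44.8, 44.3 and 40.9 against 49.6, 47.1 and 50.9. Knockout replicate 2 then lay under all wild-type arrays and just under knockout replicate 1. Hsd17b3 read 0.32, 0.94 and -0.14 against 1.09, 1.04 and 1.22. Cyp17a1 read 3.95, 4.11 and 3.17 against 4.08, 4.37 and 4.08, with only knockout replicate 3 far below the rest. In whole testis, fewer cells of a type and less RNA per cell cannot be told apart. The part of Leydig cell RNA in the member differences was not tested.

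**Figure D4:**
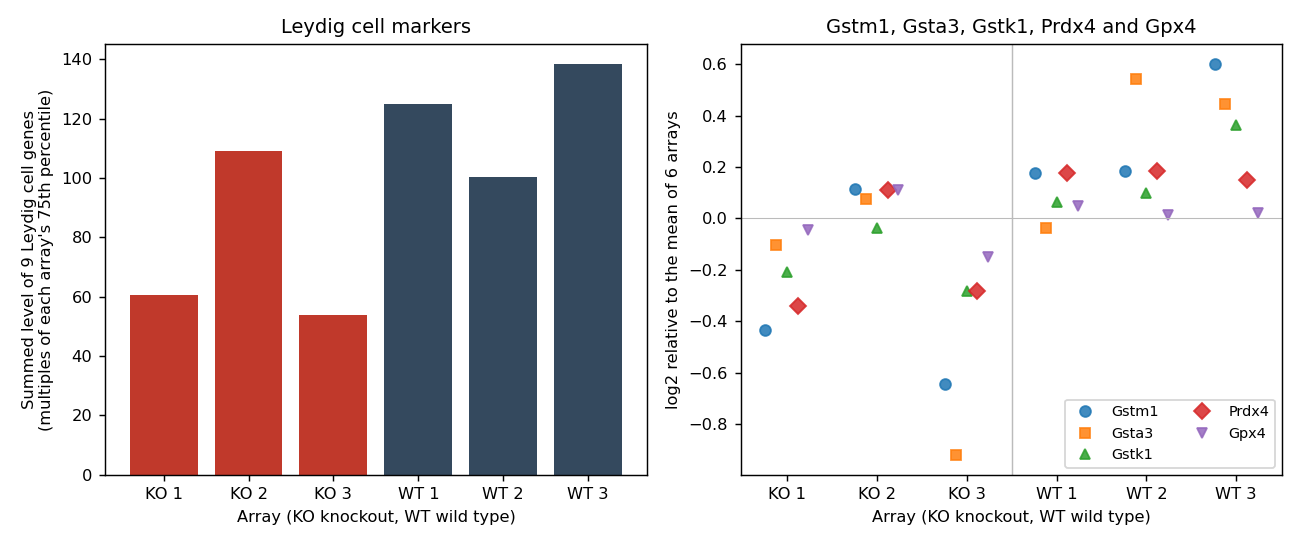
Left, summed level of 9 Leydig cell genes on each array (multiples of the array's 75th percentile). Right, log2 values of Gstm1 (base 807), Gsta3 (base 852), Gstk1, Prdx4 (base 907) and Gpx4 relative to their mean over the 6 arrays. Knockout replicates 1 and 3 are low on the left, at 60.6 and 53.8, where Ptgds makes up much of the sum. They are the lowest 2 arrays for every gene on the right, Gpx4 among them.

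For the 4 germ cell lists the sums of the groups overlapped. The elongating spermatid genes summed to between 2641 and 2992 in the knockout and between 2788 and 2926 in the wild type, and the round spermatid genes to between 146.0 and 162.5 against between 155.3 and 171.3. Within the elongating spermatid list, Odf1, a protein of the sperm tail, read 5.23, 5.46 and 5.05 against 5.51, 5.57 and 5.57 (-0.30 ± 0.11, limma p 0.0323), without overlap and with knockout replicate 2 nearest to the wild type, as for Txndc8. It was the only 1 of the 8 genes of that list with an unadjusted p under 0.05. Of the 8 genes, 5 lay below 0, and the median difference over the list's 10 probes was -0.02. Sertoli cell genes summed to 331.2, 328.5 and 343.5 against 317.3, 312.2 and 314.1, higher on all knockout arrays. Rhox8 made up much of that sum (7.02, 6.90 and 7.02 against 6.66, 6.76 and 6.81), and Clu, the brightest, gave -0.01 ± 0.06. Rhox8 (0.24 ± 0.07), Fshr (0.51 ± 0.19) and Amh (0.62 ± 0.25) of that list had an unadjusted p under 0.05, and none passed the adjusted test. The other Rhox8 probe gave 0.01 ± 0.06, and the dim Amh probe was well above background on only 3 arrays. Endothelial genes summed to 9.42, 9.86 and 8.73 against 9.91, 10.03 and 10.24, lower on all knockout arrays. Kdr and Vwf made up most of that sum, and only 3 of the 6 genes lay below 0. Macrophage and leukocyte genes summed to between 6.71 and 8.22 against between 7.75 and 9.35. Blood cell genes summed to 18.9, 8.82 and 17.3 against 7.75, 11.0 and 11.3, so knockout replicates 1 and 3 were the high arrays there. Whether any of these bear on the member differences was not tested.

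The pathway around these families was read through 92 further genes in 7 lists, and 0 of their 118 tested probes passed at a limma adjusted p under 0.05. An unadjusted p under 0.05 was found for 10 of the 118 probes, 6 lower and 4 higher in the knockout. Of all tested probes 7.66% had such a p, 3.25% lower and 4.41% higher, so the share here was close to that of all. This count ran from 4 without wild-type replicate 2 to 17 without knockout replicate 2, where all tested probes gave 2033 and 5432. A total of 67 probes lay below 0 and 51 above, with a median of -0.02.

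The lowest p among them belonged to Ggt1 and Ggt5, surface enzymes that split glutathione outside the cell. Ggt1 read -4.51, -4.89 and -4.63 in the knockout and -5.41, -5.39 and -5.14 in the wild type, all higher in the knockout (0.64 ± 0.12, adjusted p 0.451). Ggt5 read -3.91, -4.08 and -4.18 against -4.47, -4.42 and -4.51 (0.41 ± 0.09, adjusted p 0.470), while its other tested probe gave -0.15 ± 0.13 with overlapping groups, so the probes of Ggt5 disagree. The Ggt1 probe and this first Ggt5 probe were dim, and with normexp background correction the differences were 0.20 and 0.12. In the same list, Oplah, which returns oxoproline to glutamate, gave -0.22 ± 0.08. Cbs, on the route to cysteine, gave -0.21 ± 0.08, and Slc3a2, a subunit of the cystine carrier, -0.18 ± 0.07. Slc7a11 of the same list, well above background on 4 arrays, was too dim to test.

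Selenium supply bears on the selenium-containing peroxidases and reductases. Selenop, the selenium carrier of plasma, read 3.27, 3.42 and 2.98 against 3.57, 3.54 and 3.71 (-0.39 ± 0.12, limma p 0.0191), without overlap. Scly, which frees selenium from selenocysteine, gave 0.19 ± 0.06. Of the NADPH-supplying genes, G6pd2 gave -0.28 ± 0.10 (-0.17 without wild-type replicate 2) and Idh1 -0.22 ± 0.08, and of the peroxide-removal genes Sesn2 gave 0.18 ± 0.07. The 3 other lists had no probe with an unadjusted p under 0.05, and their genes of lowest p were Mgst2 (-0.27 ± 0.12), Mafg (0.20 ± 0.09) and Qsox2 (0.21 ± 0.11).

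Nrf2, the factor that switches on many of these genes under oxidative stress, binds the antioxidant response element, whose core was searched as TGACNNNGC on both strands of RefSeq promoters (GRCm38.p6, 250 bases before to 50 bases after each start). It was found in 9 of 67 promoters of 50 member genes (13.4%) and in 4071 of 32851 promoters in all (12.4%). Among the 12 promoters of the 10 genes with an unadjusted p under 0.05, 0 held it, which says only that these letters are not in that window. The 3 matches below, with the core in capitals, belong to members that are described above.
Gsta3: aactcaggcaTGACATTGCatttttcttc
Prdx1: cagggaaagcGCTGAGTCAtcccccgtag
Txnrd1: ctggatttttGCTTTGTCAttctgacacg
They lie at chr1:21240454-21240482, chr4:116685456-116685484 and chr10:82859104-82859132, and in Prdx1 and Txnrd1 the core reads on the opposite strand.

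**Figure D5:**
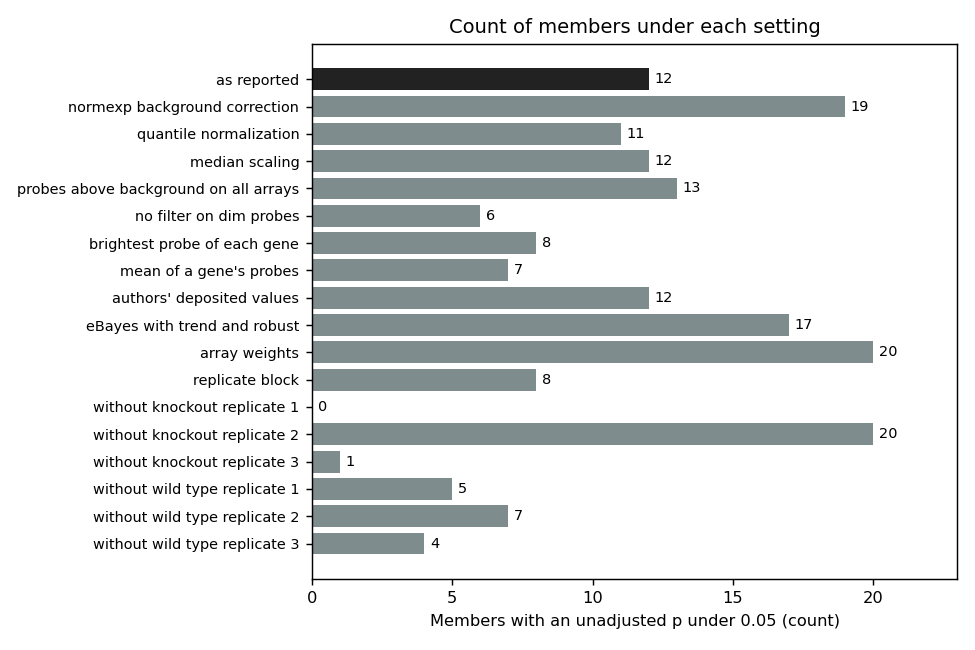
Number of member probes with an unadjusted p under 0.05 (x axis) under each setting tried (y axis), with the reported count of 12 in black. The count is 0 without knockout replicate 1 and 20 without knockout replicate 2. The count over all tested probes, which is not drawn, moved from 2979 to 2017 and 5432 in these settings.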

How the data were processed

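The deposited scanner files are from 1-colour Agilent arrays, read with Agilent Feature Extraction 10.7.3.1 per the file headers. The authors' processed signal is a background-corrected intensity on a linear scale, with probe positions on mm9. Their deposited value table equals that signal times 1 factor per array (median 200) and was used as an alternative.

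Outlier spots were left out, spots of a probe averaged, log2 taken and each array's 75th percentile subtracted. Probes well above background on all 3 arrays of a group were tested (38884) with limma 3.58.1 (R 4.3.3), two-sided, without covariates, with Benjamini-Hochberg adjustment over all of them. The code was tested on simulated data. Exon and UTR status of probes was not analysed here.

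Members and lists were chosen with earlier results of these data known. Named were Gpx4, Prdx4, the testis or sperm forms, Gpx5, members with an unadjusted p under 0.05 and the 2 genes of lowest p per class, and pathway genes by the same p or the lowest of their list. Other members are given as ranges or in short. Precision is limited by 3 arrays per group. Alternatives covered background correction, scaling, filters, probe choice, the spread estimate, array weights, replicate numbers and each array left out.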

Additional observations from a re-analysis of the deposited data

How the results depend on the processing

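Members with an adjusted p under 0.05 numbered 0 under all 17 alternatives, and so did pathway probes. The 12 member probes with an unadjusted p under 0.05 became 19 with normexp background correction, 6 with no filter on dim probes, 7 with a gene's probes averaged and 20 with array weights, and 0 to 20 with 1 array left out. The 2979 such probes among all tested became 3309 with normexp, 2953 with no filter, 2121 with a gene's probes averaged and 6944 with array weights. They became 3270 with a trended and robust spread, and 2017 to 5432 with 1 array left out. The 10 pathway probes became 5 with no filter, 17 with a trended and robust spread and 19 with array weights, and 4 to 17 with 1 array left out. Over all tested probes, the 18 calls became 30 with normexp, 7 with no filter, 35 with the trended and robust spread and 29 with array weights, and 4 to 26 with 1 array left out. Under quantile normalization there were 16 calls, 16 lower and 0 higher. Without knockout replicate 2, Gipr gave -2.46 with an adjusted p of 0.064. The causes were not tested.

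With the replicate number as a replicate block, 6 probes were called in all, 8 members had an unadjusted p under 0.05 and 0 members were called. Samples of the same number also share a column of the slide. They did not deviate together from their group means (correlations of 0.058, -0.024 and -0.003 over 38884 probes).

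Of 823 values of 52 single probes under the alternatives, 15 turned in direction, all for probes near 0 and none of the 12 above. Under quantile normalization these were Txndc2 (0.0233), Gstz1 (0.0107) and Txnrd3 (0.0020), with array weights Gstz1 (0.0345) and with normexp Gsto2 (-0.0135). With 1 array left out, the ranges that cross 0 were -0.1066 to 0.0514 for Txndc2, -0.1268 to 0.0050 for Gpx4, -0.0363 to 0.0401 for Gstz1, -0.0555 to 0.0837 for Gsto2, -0.1929 to 0.0437 for Gsta1 and -0.0820 to 0.0088 for Txnrd3.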
